A study of Mus musculus with 74 samples.

Results

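The Cd11b-negative cells of the brain, called the nonmicroglia fraction, were compared between Trem2 knockout and wild-type mice that had eaten cuprizone. The comparison took the 6 knockout (Trem2 -/-) and the 6 wild-type (Trem2 +/+) libraries of that fraction on the cuprizone diet, chosen by their labels, out of 37 nonmicroglia libraries and 74 libraries in all. Whole brains were dissociated, viable cells were sorted, and Cd11b-positive cells were kept apart from every other cell, so that each animal gave a microglia and a nonmicroglia library. RNA was read by 3' tag sequencing, which counts fragments near the end of polyadenylated transcripts.

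The knockout group held 3 mice fed chow with 0.2% cuprizone for 5 weeks (animals 310, 2478 and 8485) and 3 fed it for 12 weeks (animals 981, 1748 and 9542). The wild-type group held 3 mice at 5 weeks (animals 743, 2474 and 9144) and 3 at 12 weeks (animals 1746, 3917 and 8043). Each set of 3 had 1 male and otherwise females. The study calls the 5-week diet acute and the 12-week diet chronic demyelination. Nonmicroglia libraries of 6 knockout and 5 wild-type mice on control chow, and the microglia libraries of the 12 cuprizone-fed animals, were used for comparison. The labels give no age, strain or number of founder lines, and name no cell type to which the Trem2 deletion is limited.

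Trem2 is a lipid-sensing receptor of microglia that signals through the adaptor Tyrobp and drives the switch to a phagocytic, lipid-handling state when myelin breaks down. Cuprizone chelates copper and, in chow, leads to the death of oligodendrocytes, the cells that make myelin, after which precursor cells divide and form new ones while astrocytes become reactive. The fraction examined here holds these oligodendrocytes, precursors and astrocytes together with vessel, ependymal and neuronal cells, in which Trem2 itself is not known for a role. In bulk libraries fewer cells of a type and less RNA per cell cannot be told apart.

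No gene differed between knockout and wild-type nonmicroglia cells after adjustment. Of 16915 genes tested in edgeR with the weeks averaged, 0 had a Benjamini-Hochberg adjusted p under 0.05 (0% of genes), and the smallest adjusted p was 1. At an unadjusted p under 0.05 there were 702 genes (4.15%), 370 of them higher and 332 lower in knockouts. Other tools called 1 gene (limma voom) and 3 genes (DESeq2), which are named further on. The same fit gave 0 calls at 5 weeks (414 genes at an unadjusted p under 0.05, 2 calls in DESeq2) and 0 at 12 weeks (724 genes, 7 calls in DESeq2). The change of the genotype difference from the 5-week to the 12-week diet had 0 calls as well (703 genes, 1 call in DESeq2), and limma voom called 0 genes in each of these 3 comparisons. All 3 stand against a background of 0% called. At an unadjusted p under 0.05 limma voom had more genes than edgeR. It had 1007 with the weeks averaged, 981 at 5 weeks, 925 at 12 weeks and 958 for the change between weeks. DESeq2 had 648, 438, 782 and 638 in the same order.

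In microglia of the same animals, with the same model, 118 of 14087 genes passed the adjusted threshold (0.838%), 29 higher and 89 lower in knockouts, and 65 passed without knockout 8485 and 76 without wild type 3917. Over the 12968 genes tested in both, the median standard error (SE) of the log2 difference was 0.60 in the nonmicroglia fraction and 0.69 in microglia.

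**Figure D1:**
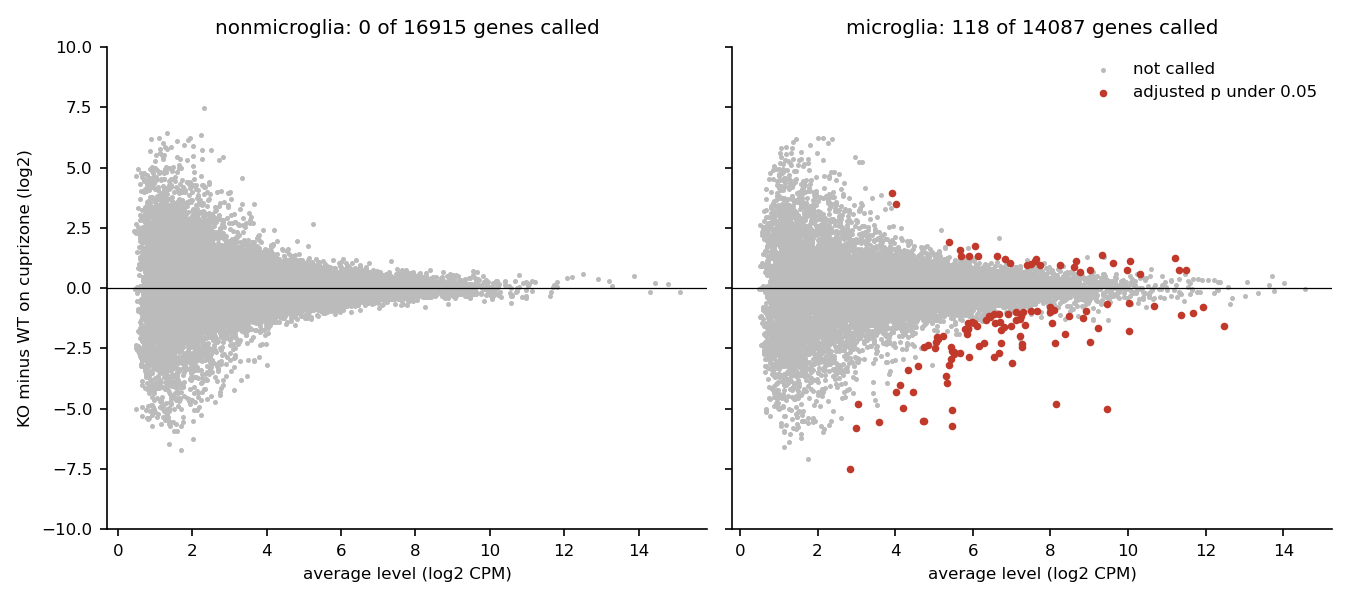
Each point is a gene, with its average level (log2 CPM) on the x axis and the knockout minus wild-type difference on cuprizone (log2, weeks averaged) on the y axis, for the nonmicroglia fraction (left) and microglia (right). Red points passed an adjusted p of 0.05, which 0 of 16915 genes did in the nonmicroglia fraction and 118 of 14087 in microglia.

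How small a difference could have gone unseen depended on the level of the gene. In the nonmicroglia fraction the 95% interval of the difference lay wholly within 2-fold in either direction for 3712 genes (21.95%) and within 4-fold for 8443 (49.91%). Among the 1421 genes above a log2 level of 7 (counts-per-million, CPM), the interval was within 2-fold for 92.82%. Between 5 and 7 it was so for 54.95% of 4191 genes, and between 3 and 5 for 0.366% of 5469. For weakly expressed genes even larger differences were not detectable in these libraries of 1377106 to 2940020 counts.

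Trem2 (ENSMUSG00000023992.14, chromosome 17, 48346401 to 48354147 on the plus strand of GRCm38.p6) was close to its detection limit in this fraction. It stood at 9.08, 4.58 and 5.30 CPM in knockouts at 5 weeks and at 9.54, 7.35 and 4.47 CPM in knockouts at 12 weeks. Wild-type animals had 7.26, 4.42 and 18.1 CPM at 5 weeks and 12.4, 8.29 and 14.0 CPM at 12 weeks. The groups overlapped, each library held 7 to 29 Trem2 counts, and the log2 difference was -0.64 ± 0.97 (SE, 95% interval -2.57 to 1.29). In microglia of the same animals Trem2 stood at 178 ± 49.1 CPM in knockouts and 827 ± 209.9 CPM in wild types (SD, n = 6 each), and it fell by 2.25 on the log2 scale (edgeR adjusted p = 1.87e-09). The difference between the fractions was 1.62 in 1 model with the animal as a block (edgeR adjusted p = 0.0186). It did not pass without the block (adjusted p = 0.17 in edgeR) or when the 2 separate edgeR fits were set against each other (1.61, unadjusted p = 0.12). Tags at the 3' end lie outside the deleted part if that part is elsewhere in the gene, and then they do not check the genotype. Genes that flank Trem2 and could differ by inherited strain background were examined too. Of 94 genes tested within 10 Mb, 0 passed in edgeR, 2 were higher and 4 lower at an unadjusted p under 0.05 (4.15% over all genes), and the median difference was 0.01.

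The makeup of the libraries was examined next, by summing the CPM of marker genes. Mature oligodendrocyte markers, 19 genes of the myelin sheath and its upkeep, summed to 18880 to 24090 CPM in knockouts and 10190 to 23030 CPM in wild types at 5 weeks. At 12 weeks they summed to 26260 to 38180 CPM in knockouts and 19620 to 33290 CPM in wild types. The groups overlapped at both weeks. The 15 microglia markers summed to 514 to 913 CPM in knockouts and 529 to 1396 CPM in wild types, against 45870 to 69160 CPM in the microglia libraries, so the sorted fraction held few microglia in either genotype. Astrocyte, endothelial, mural and ependymal or choroid plexus markers were all present, so the fraction is a mixture as its label says.

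Libraries that stood apart touch several values below. Wild-type animals 743 and 9144, both at 5 weeks, had the lowest oligodendrocyte sums of the 12 and neuron sums of 7188 and 6013 CPM. The third wild-type animal at 5 weeks, 2474, had 1081 CPM of neuron markers, and knockouts at 5 weeks had 1386 to 2967 CPM. Neuron sums may rest largely on 1 member, Meg3, at an average log2 level of 10.57 against 3.93 to 6.36 for the others. Fits without animals 743 and 9144 leave 1 wild type at 5 weeks, animal 2474. Their values rest on that animal for that week. Knockout animal 9542 at 12 weeks held RNA of olfactory sensory neurons: 8 genes of the odour-sensing cell, a list drawn up after its values were seen, summed to 2876 CPM there and to at most 80.6 CPM in the other 11 libraries. Omp, the olfactory marker protein, was at 648 CPM in that animal and at most 15.6 CPM elsewhere. Ependymal and choroid plexus markers were also highest in a knockout at 12 weeks (38420 CPM, against 13970 to 32400 CPM elsewhere). Sequencing depth, mitochondrial share and noncoding share overlapped between the genotypes. The mitochondrial share was 6.59 ± 1.86% in knockouts and 5.40 ± 1.57% in wild types (SD, n = 6 each, exact two-sided permutation p within weeks = 0.255). RNA integrity numbers were 7.6 to 8.1 in knockouts and 7.3 to 8.3 in wild types at 5 weeks, and were given for 1 animal of each genotype at 12 weeks (9.2 in the knockout and 8.5 in the wild type).

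**Figure D2:**
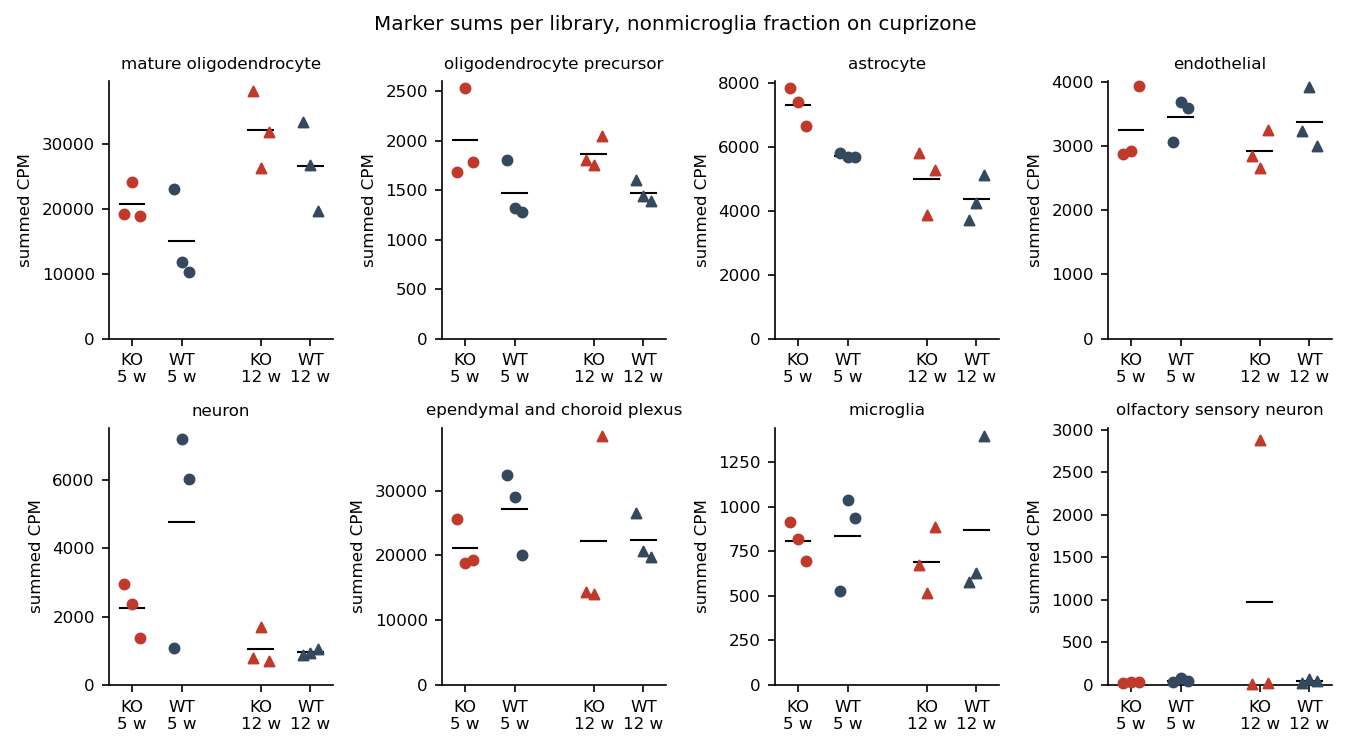
Summed CPM of marker genes (y axes, from 0) in each of the 12 nonmicroglia libraries on cuprizone, with knockouts (KO, red) left of wild types (WT, dark) at 5 weeks (circles) and 12 weeks (triangles); black bars are means of 3 animals. Neuron markers reach 6013 and 7188 CPM in 2 wild types at 5 weeks, and olfactory sensory neuron genes reach 2876 CPM in 1 knockout at 12 weeks.

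Myelin genes overlapped between the genotypes. Mbp, myelin basic protein, had a lowest, median and highest level of 1530.0, 2545 and 4556 CPM in knockouts, against 1339, 2041 and 3234 CPM in wild types. Its difference was 0.28 ± 0.21 (95% interval -0.14 to 0.70), so a fall in knockouts of more than 0.14 and a rise of more than 0.70 lay outside the interval. Mog, an outer-sheath protein of late oligodendrocytes, had 155, 202 and 560 CPM in knockouts, against 90.5, 140.0 and 307 CPM in wild types, and its difference of 0.62 ± 0.28 had an unadjusted p = 0.0339 and an adjusted p of 1 in edgeR. The highest value belonged to knockout animal 1748 and the 2 lowest to wild-type animals 743 and 9144.

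Over the whole list of 19 mature oligodendrocyte genes, 0 were called, 18 had a difference above 0 and 4 of those had an unadjusted p under 0.05. The list's median was 0.35, beside 0.00 over all genes. Opalin, a membrane protein of the mature cell, was the member with the smallest p (0.80 ± 0.32, unadjusted p = 0.0145, adjusted p = 1 in edgeR). The members are read from the same 12 libraries, so 18 of 19 is not 18 separate observations. Without animals 743 and 9144 the median was 0.21 with 16 of 19 above 0, and with single libraries left out it ranged from 0.30 to 0.52.

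The precursor list holds 10 genes of oligodendrocyte precursors, of which Olig1, Olig2 and Sox10 also stay on in later cells of the lineage. All 10 had a difference above 0, with a median of 0.37, 2 at an unadjusted p under 0.05 (Olig1 and Ptprz1) and 0 called. Their sum was 1688 to 2538 CPM in knockouts and 1283 to 1802 CPM in wild types at 5 weeks, which overlapped. At 12 weeks it was 1757 to 2049 CPM in knockouts and 1392 to 1599 CPM in wild types, which did not. Most of this sum comes from Olig1, Cspg5, Ptprz1, Olig2 and Sox10, at average log2 levels of 7.19 to 9.02. Vcan was at 5.76, and Pdgfra, Cspg4, C1ql1 and Lhfpl3 were at 3.80 to 4.89, so the separation is not shown for them. Olig1, a transcription factor of the whole lineage, had 511, 603 and 889 CPM in knockouts, against 373, 423 and 610 CPM in wild types (0.53 ± 0.20, unadjusted p = 0.0101, adjusted p = 1 in edgeR). Pdgfra, the growth factor receptor that defines the precursor, was at 0 to 38.1 CPM in knockouts and 3.12 to 25.6 CPM in wild types, and its difference of 0.05 ± 0.86 had no stable sign across settings. Cspg4, the NG2 proteoglycan of the precursor surface, differed by 0.28 (unadjusted p = 0.62). Without animals 743 and 9144 the list's median was 0.32. Newly formed oligodendrocyte genes pointed the other way, with 6 of 9 below 0 and a median of -0.27. Tcf7l2, a transcription factor of that stage, differed by -0.40 ± 0.36.

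Astrocyte genes had a median of 0.26, with 13 of 15 above 0, 4 at an unadjusted p under 0.05 and 0 called. At 5 weeks their sum was 6659 to 7833 CPM in knockouts and 5666 to 5804 CPM in wild types, without overlap. At 12 weeks it was 3850 to 5811 CPM in knockouts and 3706 to 5107 CPM in wild types, which overlapped. Aqp4, the water channel of astrocyte end-feet, went against the list (-0.23 ± 0.24, 95% interval -0.72 to 0.26). Of the 14 reactive astrocyte genes tested, 8 were below 0 and the median was -0.29. Gfap, the intermediate filament of reactive astrocytes, was poorly measured at 1.18 to 35.3 CPM in knockouts and 2.596 to 18.9 CPM in wild types, and differed by 0.83 ± 0.88. Vim, a second filament, differed by -0.14 ± 0.31. Serpina3n, a protease inhibitor of reactive astrocytes and of stressed oligodendrocytes, differed by 0.66 ± 0.74 and by -0.19 without animals 743 and 9144. C3, a complement factor made by some reactive astrocytes, lies within 10 Mb of Trem2 and is 1 of the 4 flanking genes with lower values given above. It was at 0 in 5 of 6 knockouts and 1.96 CPM in the other, and at 0 in 3 wild types and 7.99, 13.1 and 8.83 CPM in the rest (unadjusted p = 0.0153, adjusted p = 1 in edgeR).

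**Figure D3:**
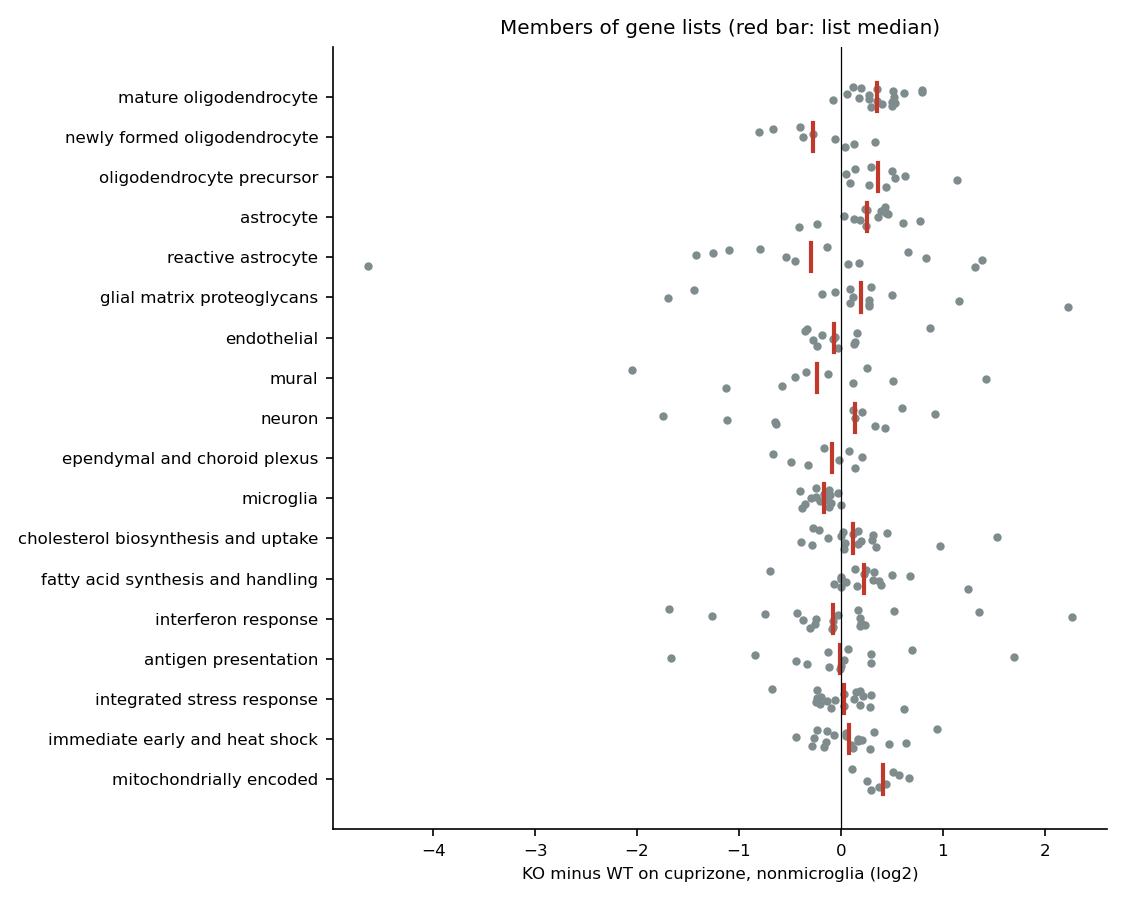
Knockout minus wild-type differences (log2, x axis) of the members of 18 gene lists in the nonmicroglia fraction on cuprizone, weeks averaged; grey points are genes and red bars list medians. No point passed an adjusted p of 0.05; the medians of the mature oligodendrocyte (0.35), precursor (0.37), astrocyte (0.26) and mitochondrially encoded (0.41) lists lie above 0.

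Vessel, ependymal and neuronal genes gave medians of either sign. The endothelial list had a median of -0.07 and the mural list -0.24. Cldn5, the tight-junction protein of the blood-brain barrier, differed by 0.13 ± 0.22 (95% interval -0.32 to 0.58). Among neuron genes 7 of 11 were above 0 (median 0.14), while the neurofilament gene Nefm was at 3.92 to 71.3 CPM in knockouts and 18.4 to 99.5 CPM in wild types (-1.12 ± 0.50, unadjusted p = 0.0277, adjusted p = 1 in edgeR). Without animals 743 and 9144 the neuron median was 0.64. Microglia genes left in the fraction had 14 of 15 differences below 0 with a median of -0.17, and without those 2 animals 14 of 15 above 0 with a median of 0.15. The 1 wild type then left at 5 weeks, animal 2474, had the lowest microglia marker sum of the wild types (529 CPM).

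Division genes were the one list of 33 whose summed level kept the genotypes apart in the same direction at both weeks. The 21 cell cycle genes, of which 20 were tested, summed to 101 to 163 CPM in knockouts and 165 to 199 CPM in wild types at 5 weeks. At 12 weeks they summed to 147 to 179 CPM in knockouts and 204 to 292 CPM in wild types. Each gene alone was weakly expressed, 0 were called and 0 had an unadjusted p under 0.05. The median was -0.47 with 14 of 20 below 0, among them Rrm2, a subunit of ribonucleotide reductase (-3.02 ± 1.70), while Ccna2 and Ccnb1, cyclins of late cell cycle, stood at 2.15 and 1.67. With single libraries left out the median ranged from -0.60 to -0.21. On control chow it was 0.55, with 12 of 20 above 0. Over the 33 lists, 4 sums kept the genotypes apart at 5 weeks and 6 did at 12 weeks. The cell cycle list was singled out from the 33 by these values. With only 3 animals against 3, sums can often keep apart with no genotype difference. How often they do so was not tested for these lists, so no separation of sums is read as a result. At 5 weeks the sums of the astrocyte, glial matrix and disease-associated lists were higher in knockouts. At 12 weeks those of the precursor, cholesterol efflux and secretory vesicle lists were higher, and those of the cholesterol synthesis and lysosome lists lower.

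Lipid and stress genes were examined because oligodendrocytes make the cholesterol of myelin and answer cuprizone with a stress program. The cholesterol synthesis list had 14 of 19 members above 0 (median 0.12) and 0 called. Its summed level went the other way at 12 weeks, at 1137 to 1260 CPM in knockouts and 1339 to 1487 CPM in wild types, without overlap. At 5 weeks the sums overlapped, at 1022 to 1255 CPM in knockouts and 1103 to 1197 CPM in wild types. Hmgcs1, an early enzyme of the pathway, went the other way, with 139, 229 and 319 CPM in knockouts, against 219.8, 287 and 439 CPM in wild types (-0.39 ± 0.19, unadjusted p = 0.0399, adjusted p = 1 in edgeR). On control chow it differed by -0.45 ± 0.20 (unadjusted p = 0.0256, adjusted p = 1 in edgeR). Fatty acid genes had a median of 0.23 and cholesterol efflux genes 0.23. The integrated stress response, which includes Ddit3 and the serine synthesis enzyme Psat1, had a median of 0.03 with 10 of 19 above 0, and Ddit3 differed by -0.14 ± 0.27 (95% interval -0.67 to 0.40). Fgf21, a stress hormone, had counts in 1 of the 12 libraries, knockout animal 9542, at 5.75 CPM. Gclc, which makes glutathione, had 17.6, 41.7 and 60.1 CPM in knockouts, against 9.44, 13.2 and 29.1 CPM in wild types (1.42 ± 0.52, unadjusted p = 0.00745, adjusted p = 1 in edgeR).

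The 8 mitochondrially encoded genes tested had 8 of 8 differences above 0 and a median of 0.41. With single libraries left out the median ranged from 0.13 to 0.71. Without animals 743 and 9144 it was 0.02, with animal 2474 as the 1 wild type left at 5 weeks. Animal 2474 had the highest mitochondrial share of the wild types (8.54%). Interferon response genes had a median of -0.08 and antigen presentation genes -0.01. B2m, the light chain of class I molecules, differed by -0.01 ± 0.24 (95% interval -0.49 to 0.47). The glial matrix list, proteins of the extracellular mesh around neurons, had a median of 0.20. Its member Ptprz1, a receptor phosphatase that is also on the precursor list, differed by 0.50 ± 0.21 (unadjusted p = 0.022, adjusted p = 1 in edgeR). The secretory vesicle list had a median of 0.25, led by the granin Scg3 at 0.51 ± 0.25 (unadjusted p = 0.0427, adjusted p = 1 in edgeR). Its member Syt4, a vesicle sensor, differed by -0.13 ± 0.32. In the glycolysis list (median -0.03) the enzyme Aldoa stood at 119.8 to 241 CPM in knockouts and 99.7 to 116 CPM in wild types, without overlap (0.52 ± 0.25, unadjusted p = 0.0413, adjusted p = 1 in edgeR).

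The remaining lists had 0 called members as well. Medians were 0.08 for immediate early and heat shock genes, 0.12 for growth and remyelination signals, 0.01 for lysosome genes, 0.02 for complement, -0.01 for metallothionein and copper genes and -0.12 for iron genes. Among other cell types they were -0.03 for fibroblasts, -0.09 for ependymal and choroid plexus cells, -0.28 for border macrophages, -0.27 for neutrophils and monocytes, -0.94 for lymphocytes and 0.02 for red blood cells. The fibroblast and blood cell medians rest on 5 to 7 genes with few counts.

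The 20 genes with the smallest p among those with an average log2 level of at least 3 are given as values that did not pass. Their unadjusted p ran from 0.000422 to 0.00585, each with an adjusted p of 1 in edgeR. Knockouts were higher in 11 and lower in 9, and the groups overlapped in all 20. Over the 16915 genes, 24 had groups that did not overlap (0.142%). On control chow, in other animals, 13 of the 20 had the same sign, beside 52.3% of 11081 genes at that level. In fits with 1 library left out, 18 of the 20 kept an unadjusted p under 0.05 throughout, and without animals 743 and 9144 it held for 11.

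Igsf8, a tetraspanin-associated immunoglobulin protein, had the smallest p of these. It stood at 49.1, 98.2 and 181 CPM (lowest, median, highest) in knockouts, against 23.5, 44.4 and 59.9 CPM in wild types. The lowest knockout fell among the wild types, and the other 5 lay above all of them. The difference was 1.16 ± 0.31 (95% interval 0.53 to 1.79), was 1.26 without animals 743 and 9144, and was -0.41 ± 0.33 on control chow.

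Cmtm5, Cldn10, Acsl6 and Phyhipl had positive differences, and none of the 4 kept an unadjusted p under 0.05 without animals 743 and 9144, whose oligodendrocyte sums were lowest. Cmtm5, a protein enriched in oligodendrocytes, had 122, 194 and 224 CPM in knockouts, against 63.7, 123 and 140.2 CPM in wild types (0.77 ± 0.24). Only the lowest knockout, animal 2478, lay within the wild-type range. Without animals 743 and 9144 Cmtm5 differed by 0.50. Cldn10, a claudin of astrocytes, differed by 0.78 ± 0.27 and by 0.39 without them. Acsl6, an acyl-CoA synthetase for polyunsaturated fatty acids in astrocytes and neurons, differed by 0.73 ± 0.25 and by 0.55 without them. Phyhipl had 75.9, 98.8 and 174 CPM in knockouts, against 26.9, 41.7 and 113 CPM in wild types, a difference of 1.03 ± 0.34 that was 0.46 without them.

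Other genes of the 20 with positive differences were St3gal4, a sialyltransferase (1.04 ± 0.37), Mocs2, of molybdenum cofactor synthesis (0.91 ± 0.32), and Nmral1, an NADPH sensor. Nmral1 had 20.9, 39.5 and 47.7 CPM in knockouts, against 0.519, 5.70 and 23.97 CPM in wild types (1.96 ± 0.62). Without animals 743 and 9144 the difference was 0.69 for St3gal4, 0.74 for Mocs2 and 1.30 for Nmral1. Rps29, a ribosomal protein with close pseudogene copies that could share its counts, differed by 2.39 ± 0.78 and by 1.94 without those animals. Adcy3, the adenylyl cyclase of odour signalling, rested on 1 library. Adcy3 was at 189.7 CPM in knockout animal 9542 and at 0.654 to 13.2 CPM in the other knockouts, against 0 to 12.3 CPM in wild types. Without that animal its difference was 1.60 (unadjusted p = 0.202), against 3.5 with it. The fit without animals 743 and 9144 gave 5.74 for Adcy3.

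**Figure D4:**
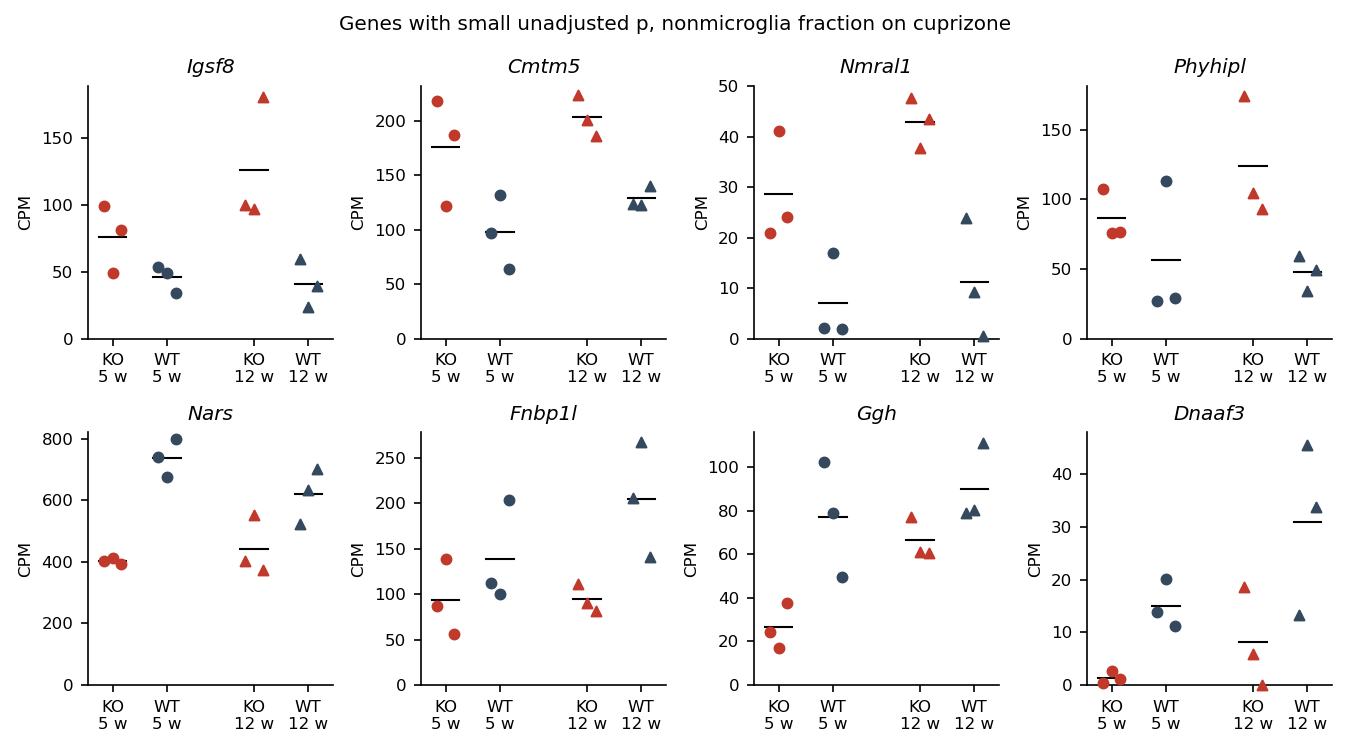
CPM (y axes, from 0) of 8 of the 20 genes with the smallest unadjusted p in each nonmicroglia library on cuprizone, knockouts (KO, red) left of wild types (WT, dark) at 5 weeks (circles) and 12 weeks (triangles); black bars are means of 3 animals. Igsf8, Cmtm5, Nmral1 and Phyhipl have higher means in knockouts and Nars, Fnbp1l, Ggh and Dnaaf3 lower ones, and in each the 6 knockouts overlap the 6 wild types.

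Among the 9 genes with negative differences, Nars, the cytosolic asparaginyl-tRNA synthetase, was the best measured. It had 373, 402 and 550.4 CPM in knockouts, against 524, 688 and 799 CPM in wild types. Only the highest knockout, animal 1748, reached the lowest wild type. The difference was -0.66 ± 0.21, was -0.56 without animals 743 and 9144, and was 0.11 ± 0.22 on control chow. Fnbp1l, a membrane-bending protein, had 55.9, 88.9 and 138 CPM in knockouts, against 99.7, 172 and 267 CPM in wild types (-0.82 ± 0.25). Ggh, a folate-trimming hydrolase of the lysosome, differed by -0.98 ± 0.31, Tiprl, a phosphatase regulator, by -0.72 ± 0.24, and Tiam1, an activator of the GTPase Rac, by -1.09 ± 0.35. Without animals 743 and 9144 the differences were -0.76 for Fnbp1l, -1.05 for Ggh, -0.48 for Tiprl and -1.26 for Tiam1.

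The remaining genes of the 20 were near the detection limit in part of the libraries. Rab43, a small GTPase of vesicle traffic, was at 0 in 4 knockouts and at 0.477 and 3.18 CPM in the other 2, against 0.428, 11.1 and 28.7 CPM in wild types. Dnaaf3, which helps to assemble ciliary dynein, had 0, 1.90 and 18.6 CPM in knockouts, against 11.2, 16.9 and 45.6 CPM in wild types. S1pr2, a sphingosine phosphate receptor, and Sez6, a neuronal membrane protein, had lower values in knockouts at 12 weeks (0 to 0.49 CPM and 0 CPM, against 2.14 to 20.3 CPM and 3.69 to 16.3 CPM in wild types). At 5 weeks their differences were -0.39 and 0.01.

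With the weeks averaged, the calls of the other tools fell on genes at 0 in 3 or more libraries. Trim45, a ubiquitin ligase, was the call of limma voom. It had counts in all 6 knockouts, at 9.99, 9.16 and 5.89 CPM at 5 weeks and 10.02, 3.43 and 35.8 CPM at 12 weeks, and none in all 6 wild types. Against a floor of 3 counts over the pooled wild-type group (0.243 CPM) the knockout mean of 12.4 CPM was 51.0-fold higher. That floor covers counting error only, so the fold is no lower bound for the spread between animals. The knockout mean also leans on the animal at 35.8 CPM. The edgeR unadjusted p of Trim45 was 0.00045 and its adjusted p was 1, and its level lies under the limit of the 20 genes above. On control chow knockouts had 0 to 14.4 CPM and wild types 0 to 9.04 CPM, and heterozygotes on cuprizone had 0 to 11.7 CPM. The 3 calls of DESeq2 were 6030407O03Rik, D930036K23Rik and Gm3307. Each was at 0 in 3 or more knockouts, and these genes were chosen after their values were seen.

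On control chow the genotypes differed in 1 of 16915 genes (0.00591%; 830 at an unadjusted p under 0.05), Aldh1l2 (ENSMUSG00000020256.14, chromosome 10, 83487450 to 83534140 on the minus strand). It encodes a mitochondrial folate dehydrogenase that the integrated stress response induces. Knockouts had 9.06, 10.6 and 27.9 CPM at 5 weeks and 12.2, 5.43 and 20.3 CPM at 12 weeks, against 0, 3.19 and 0 CPM at 5 weeks and 0 and 0 CPM at 12 weeks in wild types. The groups did not overlap, and Aldh1l2 rose by 5.86 ± 1.13 (adjusted p = 0.0311 in edgeR), a fitted value that depends on the prior count because 4 of 5 wild types had none. On cuprizone Aldh1l2 stood at 18.1 to 40.4 CPM in knockouts and 18.1 to 54.8 CPM in wild types (-0.27 ± 0.64). The test of the difference between diets had an adjusted p = 0.223 for it, and no gene passed that test (0%; 713 at an unadjusted p under 0.05, 6 calls in DESeq2 and 0 in limma voom). The call on control chow did not hold in 5 of the 11 fits that left out 1 library: those without wild types 1932, 309 or 5512 or without knockouts 9467 or 9470. Of these, the fit without wild type 1932 left 1 wild type at 12 weeks, as did the fit without wild type 9145. Both rest on 1 animal there. The count of calls was 2 without knockout 8635 or knockout 945, which added Gm38062.

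Whether the genotype difference itself differed between the fractions of the same animals was tested in 1 model with the animal as a block. Of 15227 genes 71 passed (0.466%), 61 with a higher and 10 with a lower knockout minus wild-type difference in the nonmicroglia fraction. Without the animal block 27 passed, and with single animals left out 51 to 107, the highest without wild type 2474. Setting the 2 separate fits against each other, with their standard errors combined, called 8 of 12968 genes, 7 of them among the 71. The standard error of the block fit was under the combined one for 63 of the 70 called genes tested in both fits. The p-values of the block fit may therefore be too small. In the rest of these results, each difference between fractions for a single gene comes from the separate fits with its combined standard error. The list median between fractions (2.05), counts marked as with the block, and the values flagged for a closer look come from the block fit. The disease-associated list holds the genes that microglia switch on around damaged myelin. In microglia all 21 members were lower in knockouts (median -1.97, beside -0.01 over all genes). Of these 16 were called, beside 0.838% of all genes there. In the nonmicroglia fraction 0 of 21 were called and 0 had an unadjusted p under 0.05, 12 were above 0 and 9 below, and the median was 0.06. The interval of the difference lay within 2-fold in either direction for 6 of the 21 in that fraction. For the rest a difference of 2-fold or more was not left out. Standard errors of the members in that fraction ran from 0.16 for Apoe to 2.20 for Itgax. The summed level of the 21 genes there was 6632 to 7462 CPM in knockouts and 5984 to 6577 CPM in wild types at 5 weeks, without overlap. At 12 weeks it was 8480 to 10750 CPM in knockouts and 8577 to 10230 CPM in wild types, which overlapped. Most of this sum comes from Fth1, Apoe and Cd63, at average log2 levels of 10.58 to 11.81. Lpl, Cst7, Clec7a, Itgax and Spp1 were at 1.79 to 3.70 and hardly enter it. The difference between fractions passed for 16 of the 21 with the animal block (median 2.05), for 10 without it and for 3 from the separate fits, where 17 had an unadjusted p under 0.05.

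Apoe, the lipid carrier that astrocytes also make in quantity, is the member best measured in both. In the nonmicroglia fraction it had 1624, 1940.0 and 2552 CPM in knockouts, against 1311, 1819 and 2186 CPM in wild types. The groups overlapped and the difference was 0.23 ± 0.16 (95% interval -0.09 to 0.54), so a fall of more than 0.09 lay outside the interval. In microglia Apoe had 1495, 4211 and 4717 CPM in knockouts, against 5403, 11280 and 19570 CPM in wild types, without overlap. There it fell by 1.55 ± 0.18 (adjusted p = 1.25e-08 in edgeR), and the fractions differed by 1.78 ± 0.24 (adjusted p = 0.00129 from the separate edgeR fits). Fth1, ferritin heavy chain, fell by 1.12 in microglia and differed by 0.06 ± 0.17 in the nonmicroglia fraction (95% interval -0.28 to 0.39). The difference between fractions was 1.18 ± 0.23 (adjusted p = 0.0517 from the separate edgeR fits, 0.0828 without the block and 0.00295 with it).

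Lpl, lipoprotein lipase, had the smallest p in the test between fractions with the block. In the nonmicroglia fraction it had 5.30, 8.74 and 18.6 CPM in knockouts, against 9.44, 14.1 and 19.4 CPM in wild types, a difference of -0.56 ± 0.77. In microglia it had 18.3, 53.8 and 132.7 CPM in knockouts, against 1101, 1989 and 3201 CPM in wild types. The fractions differed by 4.45 ± 0.85 (adjusted p = 0.0452 from the separate edgeR fits). Spp1, secreted osteopontin, had 2.72, 4.84 and 12.1 CPM in nonmicroglia knockouts, against 2.14, 7.84 and 24.98 CPM in wild types, and the fractions differed by 4.06 ± 1.41 (adjusted p = 0.85 from the separate edgeR fits, 0.425 without the block and 1.15e-26 with it). Csf1, a growth factor for microglia that astrocytes and oligodendrocytes also make, had 37.7, 57.0 and 120.7 CPM in knockouts, against 19.2, 37.04 and 62.1 CPM in wild types. Its difference was 0.70 ± 0.40 in the nonmicroglia fraction and -1.97 ± 0.42 in microglia, and the fractions differed by 2.67 ± 0.58 (adjusted p = 0.115 from the separate edgeR fits, 0.0333 without the block and 3.15e-09 with it).

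**Figure D5:**
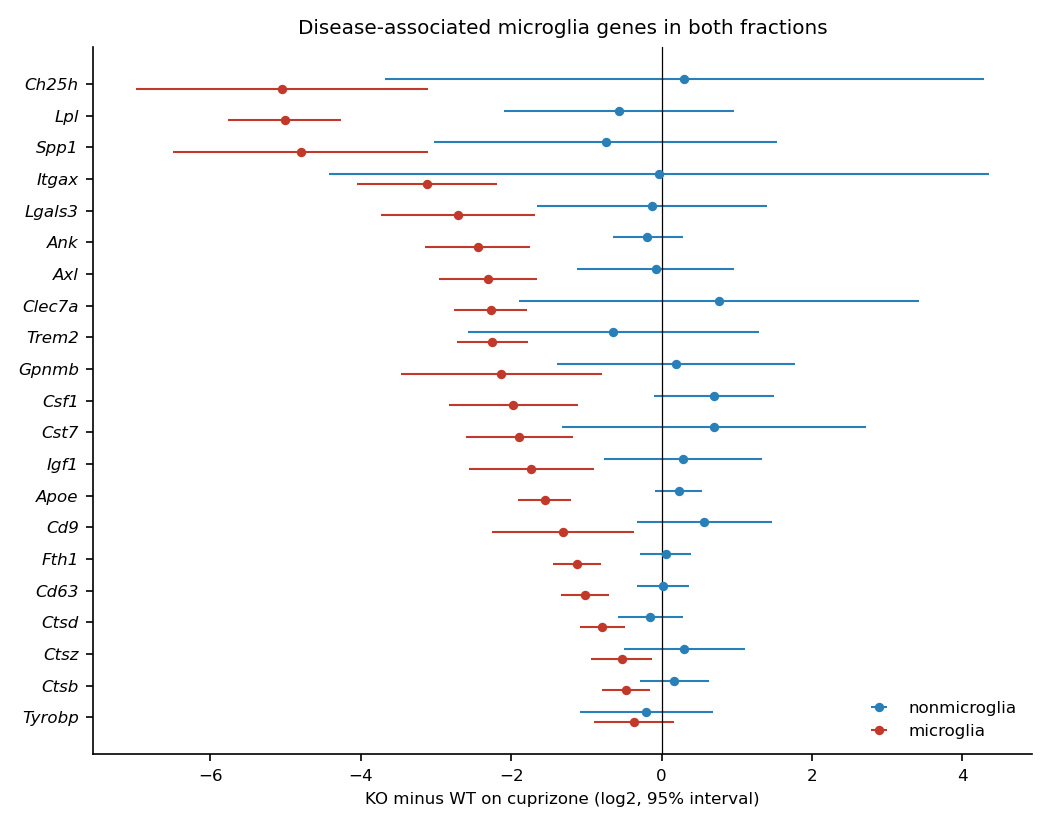
Knockout minus wild-type difference on cuprizone (log2, x axis) of the 21 disease-associated microglia genes, with 95% intervals, in the nonmicroglia fraction (blue) and in microglia (red) of the same 12 animals. All 21 microglia values lie below 0, while the nonmicroglia values lie between -0.74 and 0.76 and every nonmicroglia interval spans 0.

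The genes called in microglia were followed into the nonmicroglia fraction as a whole. Of the 118, 108 were tested there, 0 were called and 3 had an unadjusted p under 0.05, 1 of them with the sign it had in microglia, beside 4.15% of all genes at that p. For 82 of the 108 the nonmicroglia 95% interval left out the microglia difference, and for 42 the interval lay within 2-fold, beside 21.95% of all genes. The 79 that fell in microglia had a median of -1.69 there and of 0.02 in the nonmicroglia fraction. The test of the difference between fractions, with the block, called 38 of the 118, beside 0.466% of all genes. The 118 were chosen by their microglia difference, which also enters that test and the count of 82, so neither is independent of the choice.

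Genes outside the disease-associated list passed the test with the block too. Fn1, fibronectin, had 112, 117 and 140 CPM in nonmicroglia knockouts, against 65.0, 78.8 and 108 CPM in wild types, without overlap (0.59 ± 0.28, unadjusted p = 0.0397, adjusted p = 1 in edgeR). In microglia it fell by 3.93 ± 0.83, and the fractions differed by 4.52 ± 0.88 (adjusted p = 0.0479 from the separate edgeR fits). Fabp5, a fatty acid carrier, differed by 0.31 ± 0.35 in the nonmicroglia fraction and fell by 3.66 ± 0.84 in microglia (fraction difference 3.98 ± 0.91, adjusted p = 0.155 from the separate edgeR fits, 0.15 without the block and 1.92e-11 with it). P2ry12, a receptor of resting microglia, rose by 1.23 ± 0.18 in knockout microglia and stood at 25.6 to 36.8 CPM in knockouts and 18.8 to 67.0 CPM in wild types in the nonmicroglia fraction (fraction difference -1.26 ± 0.46, adjusted p = 0.876 from the separate edgeR fits, 0.187 without the block and 0.0343 with it). Rab43 and Tiam1 stood among the 10 genes whose difference was lower in the nonmicroglia fraction. Rab43 differed by -4.22 ± 1.30 there and by -0.36 ± 0.45 in microglia (fraction difference adjusted p = 0.856 from the separate edgeR fits, 0.111 without the block and 0.0186 with it). Tiam1 differed by -1.09 ± 0.35 there and by 1.38 ± 0.82 in microglia (adjusted p = 0.876 from the separate edgeR fits, 0.324 without the block and 0.0113 with it). Rab43 and Tiam1 were also among the 20 genes chosen by their nonmicroglia p, so these tests are not independent of that choice.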

How the data were processed

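The deposited table holds whole-number counts of 3' tags per gene for 49912 genes and 74 libraries, with no normalization by the authors. Of upstream tools the submitters' processing notes list STAR, FastQC 0.11.5, MultiQC and R 3.4.3, with GRCm38.p6 as the genome build. How tags were counted, which annotation served, and whether strand or molecular identifiers were used is not stated in the labels. Genes that overlap, or that have near-identical copies, may share tags. Gene positions come from GENCODE M21, looked up by Ensembl identifier.

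The 37 nonmicroglia libraries were fitted with edgeR 4.0.16 in R 4.3.3: filterByExpr with a minimum count of 10, TMM, and a robust quasi-likelihood model of 12 group means and sex, with 24 residual degrees of freedom. The weeks were averaged with equal weight. Tests were two-sided, the Benjamini-Hochberg adjustment ran over every gene tested, and calls were made at an adjusted p under 0.05. Standard errors and 95% intervals come from the F statistic. CPM are a library's counts scaled to a total of 1000000. The 2 fractions of the 12 animals were fitted together with the animal as a block; the pairing comes from the animal number in the labels, and the deviations of an animal's fractions from their group means correlated by -0.039 to 0.103 over 10082 genes. Alternatives were DESeq2 1.42.0 (local dispersion trend), limma 3.58.1 voom, DESeq2 size factors, no filter, no sex term, the 12 libraries alone, dropping libraries whose first principal component exceeded 30, and each library left out. Leaving out animals 743 and 9144, the microglia comparison, and the difference of the separate fits of the 2 fractions (standard errors combined in quadrature, t with 24 degrees of freedom) were added after the data were seen. No pair among the 12 libraries was a copy (lowest chi-square per degree of freedom 12.52). The code was tested on simulated data.

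Genes named are Trem2, a fixed panel, the 20 of smallest p with an average log2 CPM of at least 3, up to 4 called genes for each other comparison, and the member of smallest p or up to 3 called members of each of 33 lists. Cspg4, Trim45, the olfactory genes, further members of the disease-associated list and the calls of other tools were picked with their values in view. A few genes of the panel and of the 20 are not reported here. The members and lists were chosen with earlier results of these data known. Intervals of the separate fits cover the spread between animals, and floors cover counting error only.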

Additional observations from a re-analysis of the deposited data

Results flagged for a closer look

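Within the 6 animals of a genotype, 15 of 110 groups of values in the nonmicroglia fraction had 1 animal far from the others by Dixon's test, which chance gives in about 1 group of 20. Among knockouts animal 1748 was highest for Mog (560 CPM), Nars (550.4 CPM) and Tiprl (191 CPM). Animal 981 was highest for Lpl (18.6 CPM), Dnaaf3 (18.6 CPM) and Phyhipl (174 CPM). Animal 9542 was highest for Adcy3 (189.7 CPM) and Fgf21 (5.75 CPM), and its olfactory gene sum was 2876 CPM. Animal 310 was highest for Rab43 (3.18 CPM) and for the summed red blood cell markers (189 CPM), and animal 2478 was lowest for Cmtm5 (122 CPM). Among wild types animal 8043 was highest for P2ry12 (67.0 CPM), animal 2474 for Ddit3 (299 CPM) and for the mitochondrial share (8.54%), and animal 743 was lowest for Acsl6 (58.1 CPM).

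The knockout minus wild-type difference on cuprizone differed between fractions (nonmicroglia minus microglia, log2, adjusted p under 0.05 in edgeR) for these 23 named genes in the fit with the animal as a block, of which 12 passed without the block and 4 (Ank, Apoe, Fn1 and Lpl) from the separate fits with combined standard errors. Of secreted and lipid genes the value was 5.87 for Ch25h, 5.11 for Spp1, 5.00 for Fabp5, 4.63 for Fn1, 4.44 for Lpl, 3.02 for Csf1, 2.0 for Igf1 and 1.77 for Apoe. Of surface receptors and markers it was 3.11 for Itgax, 2.85 for Clec7a, 2.77 for Gpnmb, 2.39 for Ank, 2.05 for Axl, 1.99 for Cd9, 1.62 for Trem2 and -1.16 for P2ry12. It was 5.15 for Pianp, 2.58 for Cst7, 2.48 for Lgals3, 2.17 for Vim, 1.16 for Fth1, -3.52 for Tiam1 and -4.21 for Rab43.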

How the results depend on the processing

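In the nonmicroglia fraction the count of called genes with the weeks averaged was 0 with DESeq2 size factors, without the sex term, with the 12 libraries alone and with each of the 12 libraries left out. It was 1 with limma voom, 3 with DESeq2 and 3 without the filter on low counts (mt-Nd4 and Stoml3 among them). At 5 weeks it was 4 without the filter (1810037I17Rik, Meg3 and Snhg11 among them) and 2 with DESeq2 (6030407O03Rik and Xrra1). At 12 weeks it was 5 (Nsg1, Omp, Stom, Stoml3 and Tshz2) and 7 (Adcy3, D930036K23Rik, Gm3307, Gm43340, Gm43857, Pak6 and Tshz2), with a range of 0 to 1 over the libraries left out (Tshz2 without knockout 981, a gene at 397 CPM in knockout animal 9542 and 34.96 to 71.0 CPM in the other knockouts, against 23.4 to 81.2 CPM in wild types). For the change between weeks it was 3 (Mpc1, Omp and Stoml3) and 1 (6030407O03Rik). On control chow it was 5 without the filter (Aldh1l2, 1810037I17Rik, Gatm, Gm38062 and Ttr), 11 with DESeq2 and 0 to 26 with a library left out, with 26 without wild type 9145. For the difference between diets it was 2 without the filter (Aldh1l2 and Ttr), 6 with DESeq2, 1 (Aldh1l2) without the libraries beyond 30 on principal component 1, and 0 to 8 with a library left out, with 8 without wild type 9145. For the difference between fractions the count of 71 became 27 with no replicate block, 33 with limma voom, 151 with DESeq2, 8 from the separate fits with combined standard errors and 51 to 107 with an animal left out (107 without wild type 2474). In microglia the count of 118 became 182 without the filter, 212 with limma voom, 251 with DESeq2 and 65 to 120 with an animal left out (76 without wild type 3917, 65 without knockout 8485). The causes were not tested. No paired analysis was possible between genotypes because they are different animals.

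Of 777 alternative values for 37 genes in the nonmicroglia fraction, 745 kept the direction and the side of the threshold, and 32 in 8 genes turned sign, all of small differences that passed no test. Pdgfra was -0.21 with limma voom and -0.45 to 0.38 with a library left out. P2ry12 was 0.14 with limma voom, 0.00 with the 12 libraries alone, 0.19 without animals 743 and 9144, and -0.18 to 0.39 with a library left out. Cd74 was 0.38 with limma voom, 0.82 without those animals and -0.38 to 1.06 with a library left out. B2m was 0.06 with limma voom and -0.16 to 0.13 with a library left out. Serpina3n was -0.19 and Cx3cr1 0.10 without those animals, with 0.09 to 1.66 and -0.24 to 0.17 with a library left out. Cldn5 ranged from -0.14 to 0.31 and Ddit3 from -0.40 to 0.04. Few intervals lie within 2-fold for genes under a log2 CPM of 5, and the part of depth in this was not tested.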
